A study of Mus musculus with 11 samples.

Results

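The BCL2 family decides whether mitochondria release the factors that start apoptosis. The 10 genes described here were chosen by name and matched to rows of the count table by Ensembl identifier. All 10 were found among 55487 genes and all 10 were among the 14521 genes with enough counts to test. They cover the survival genes Bcl2, Bcl2l1 (BCL-XL), Mcl1 and Bcl2a1b (a mouse copy of A1), the BH3-only death genes Bcl2l11 (BIM), Bbc3 (PUMA), Pmaip1 (NOXA) and Bid, and the pore-forming effector genes Bax and Bak1.

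The RNA was from 11 acute myeloid leukaemia (AML) samples, taken from mice with Flt3-ITD, an internal tandem duplication that activates the cytokine receptor FLT3, and NHD13, a transgene of the NUP98-HOXD13 fusion. Of these, 6 samples were Ifnar1 +/- and 5 were Ifnar1 -/-. Ifnar1 encodes a subunit of the type I interferon receptor, so the Ifnar1 +/- controls also lack 1 functional copy, and there was no wild-type and no non-leukaemic group. The sources used here do not give strain, age, treatment, the promoter of the transgene or the number of mice, so p-values rest on the spread between samples that are not stated to be separate mice. Libraries of 1 genotype differed by at least 59.02 times counting noise (chi-square per degree of freedom over genes), so each was counted as a sample of its own. The series' own design text calls the material HPCs, while every sample label calls it AML.

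Survival proteins hold the death proteins in a groove on their surface. BH3-only proteins fill that groove through a short helix, the BH3 domain, and so free BAX and BAK to open the outer mitochondrial membrane. In blood cells the survival member a cell leans on changes with lineage and maturity, and the BCL2 inhibitor venetoclax is used in AML. Many BH3 domains share a core of leucine, any 3 residues, glycine and aspartate. The 18 bases that encode this core are shown for the members in which it was found, among them survival, effector and BH3-only genes. The 12 bases in lower case encode the leucine and the 3 variable residues, and the capitals encode glycine and aspartate.

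Bcl2: ctccgccgggctGGGGAT
Bcl2l1: ctgagagaggcaGGCGAT
Mcl1: ctgcggcgcgtgGGCGAC
Bcl2l11: ctgcggcggatcGGAGAC
Bax: ctccggcgaattGGAGAT
Bak1: cttgctctcatcGGAGAT
Bid: ctcgcccaaataGGCGAT

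These sequences were read from GENCODE release M21 transcripts (GRCm38), in the longest coding sequence of each gene, 5′ to 3′ on the coding strand. All lie in coding exons. The cores are at chr1:106712584-106712601 in exon 1 of Bcl2 (minus strand), chr2:152829706-152829723 in exon 2 of Bcl2l1 (minus strand) and chr3:95659436-95659453 in exon 1 of Mcl1 (plus strand). The death genes carry them at chr2:128147150-128147167 in exon 3 of Bcl2l11 (plus strand), chr7:45466006-45466023 in exon 3 of Bax (minus strand), chr17:27022540-27022557 in exon 4 of Bak1 (minus strand) and chr6:120897298-120897315 in exon 4 of Bid (minus strand). Each of these 7 genes held the core once. The remaining members are Bcl2a1b at chr9:89199209-89207827 and Bbc3 at chr7:16308393-16318205, both on the plus strand, and Pmaip1 on chromosome 18. Neither Bcl2a1b nor Bbc3 held it in this strict form, and Pmaip1 was not searched. The same pattern occurred in frame in 13.3% of 21764 coding genes, so a match by itself does not mark a family member.

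Library totals ran from 25583642 to 38728143 estimated counts. Levels are CPM (counts scaled to a common library size after TMM normalization), and CPM per kilobase of annotated exon is used where genes are compared with each other. The transcription factor gene Ebf1, which starts the B-lineage programme, split the libraries into separate sets. It had 531 to 745 CPM in Ifnar1 +/- libraries 3, 4 and 5 and Ifnar1 -/- libraries 3 and 5, called Ebf1-high here, and 0.0309 to 8.72 CPM in the other 6. These sets come from the data and not from the labels. The targeted gene Ifnar1 had 39.3 to 84.5 CPM in Ifnar1 +/- and 36.3 to 133 CPM in Ifnar1 -/- libraries. The sources used here do not say which part of the gene was deleted, so this gene-level count does not check the genotype labels, which are used as given. The 9 early B-lineage markers, Ebf1 among them, summed to 5853 to 9237 CPM in the Ebf1-high libraries and 11.8 to 125 CPM in the others, while the 3 mature B cell markers reached at most 154 CPM. Of the stem and progenitor markers, Kit, Cd34 and Flt3 were detected in every library, at 6.77 to 599, 5.94 to 380.4 and 72.9 to 233 CPM. Mecom ran from 0 to 112 CPM. In bulk RNA, fewer cells of a type and less RNA per cell cannot be told apart.

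Some libraries stood apart. Ifnar1 +/- library 6 had 85396 CPM summed over 5 erythroid markers, against at most 8682 CPM elsewhere. Ifnar1 -/- library 2 had 55508 CPM summed over 4 eosinophil markers and 30309 CPM over 7 myeloid progenitor and neutrophil markers, against at most 1561 and 4688 CPM elsewhere. Member results that turn on library 2 are also given without it. The part of these other cell types in the values was not tested.

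By level per kilobase, the effector Bax and the survival gene Bcl2l1 led, the BH3-only gene Bid came next and Bbc3 was lowest. Median levels over the 11 libraries were 126 CPM per kilobase for Bax, 68.3 for Bcl2l1, 24.2 for Bid, 8.11 for Mcl1, 5.97 for Bak1, 5.10 for Pmaip1, 2.52 for Bcl2l11, 2.48 for Bcl2, 2.41 for Bcl2a1b and 1.37 for Bbc3. Bax exceeded Bcl2l1 in 10 of 11 libraries, Bcl2l1 exceeded Bid in 10 and Bid exceeded Mcl1 in 9. From Bak1 down to Bcl2a1b neighbours in this order changed places in 4 to 6 of the 11 libraries, so their order did not hold beyond the spread.

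The members differed widely in how much they varied. Bax ranged 2.11-fold and Bak1 2.33-fold from the lowest to the highest library, and the SD of their log2 CPM exceeded that of only 18.1% and 18.9% of tested genes. Bcl2l1 and Mcl1 were near the middle, with ranges of 4.61-fold and 4.96-fold. Bcl2 ranged 206-fold and Bcl2a1b 402-fold, which placed their SDs at the percentiles 94.6 and 93.8. The effectors were thus the steadiest members, and a pair of survival genes the most variable.

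**Figure D1:**
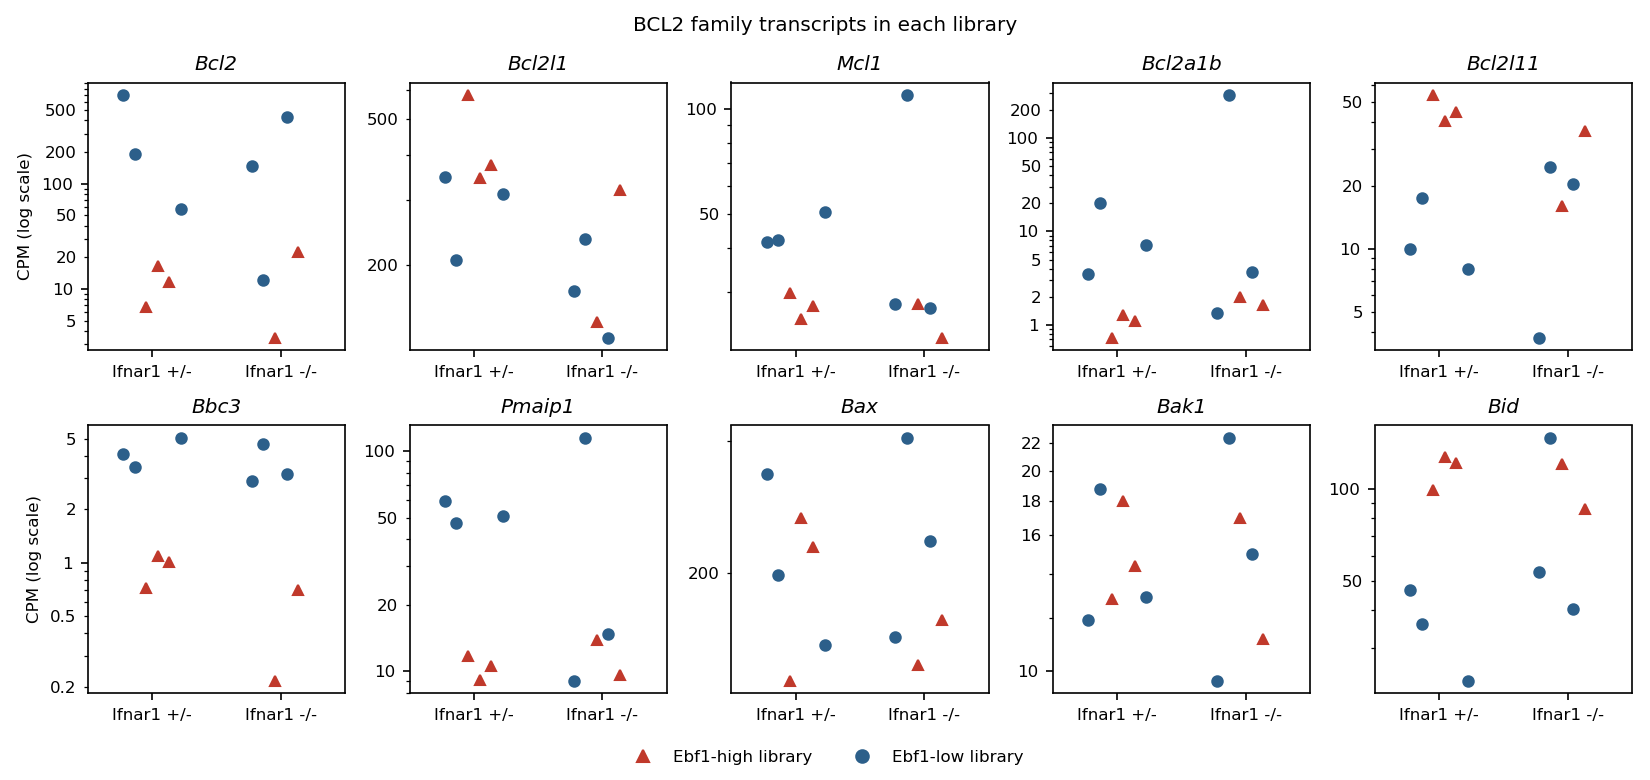
CPM of each member on a log axis, with 1 point per library, Ifnar1 +/- on the left and Ifnar1 -/- on the right of each panel. Triangles are the 5 Ebf1-high libraries and circles the other 6. Bbc3 is the member whose triangles all lie below all circles, and Bcl2 runs from 6.77 to 702 CPM within Ifnar1 +/- and from 3.40 to 432 CPM within Ifnar1 -/- AML.

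Bcl2, the founding survival gene, varied over a wider range than any member but Bcl2a1b. Its CPM values were 702, 192, 6.77, 16.7, 11.7 and 57.2 over Ifnar1 +/- libraries 1 to 6, and 147.5, 12.3, 3.40, 432 and 22.7 over Ifnar1 -/- libraries 1 to 5. The Ebf1-high libraries, at 3.40 to 22.7 CPM, were the low ones in both genotypes. Of the other 6, 5 had 57.2 to 702 CPM and Ifnar1 -/- library 2 had 12.3. In edgeR with genotype in the model, Bcl2 fell by 0.40 on the log2 scale per doubling of Ebf1 (SE 0.11, adjusted p = 0.0250). Treating Ebf1 as high or low gave a log2 difference of -4.38 (SE 1.01, edgeR adjusted p = 0.00992).

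The Bcl2 slope kept its direction without any single library, at -0.50 to -0.34. The call itself was lost, at edgeR adjusted p values of 0.0501 to 0.0716, without Ifnar1 +/- library 1, 3, 4 or 5 or Ifnar1 -/- library 3 or 4. Without Ifnar1 -/- library 2 the adjusted p was 0.0101, and the Ebf1-high libraries then lay below all others, as they did for 13% of genes. Among the 6 libraries with little Ebf1, the highest Bcl2 levels were in Ifnar1 +/- library 1 and Ifnar1 -/- library 4. These also had the highest sums of 4 stem and progenitor markers (1165 and 624 CPM) and of 3 mast cell markers (6416 and 3242 CPM). The same held for 3 megakaryocyte markers (2669 and 1769 CPM). Singly, Kit, Cpa3, Fcer1a and Itga2b were highest in these libraries. For Cd34, Mecom, Flt3, Mcpt8, Pf4 and Gp9 some other library exceeded Ifnar1 -/- library 4 or Ifnar1 +/- library 1. The part of these cell types in the Bcl2 level was not tested.

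Bcl2l1, whose product BCL-XL protects erythroid and platelet lineages, was abundant in all 11 libraries. Ifnar1 +/- libraries 1 to 6 held 348, 207, 583, 346, 375 and 313 CPM of it, and Ifnar1 -/- libraries 1 to 5 held 170, 236, 139.9, 126 and 320.5. The genotypes overlapped through Ifnar1 -/- libraries 2 and 5. The log2 fold change, Ifnar1 -/- against Ifnar1 +/-, was -0.87 (SE 0.31), and it did not pass the test over all genes (unadjusted p = 0.0176, edgeR adjusted p = 0.9998). It was -0.92 (SE 0.44) among the Ebf1-high libraries, -0.69 (SE 0.35) among the other 6 and -0.73 (SE 0.30) with Ebf1 as a covariate. Leaving out each library in turn gave -1.11 to -0.68. Its slope on Ebf1 was 0.039 (SE 0.027, edgeR adjusted p = 0.292), which did not pass.

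Mcl1 encodes a short-lived survival protein that normal haematopoietic stem cells need. Taken in order, Ifnar1 +/- libraries 1 to 6 showed 41.7, 42.1, 29.7, 25.1, 27.3 and 50.7 CPM, and Ifnar1 -/- libraries 1 to 5 showed 27.7, 109.6, 27.6, 26.9 and 22.1. Ifnar1 -/- library 2 was the high one, and the other 4 of that genotype lay within 22.1 to 27.7 CPM. The genotype log2 fold change was 0.24 (SE 0.43), turned to -0.47 without that library, and passed in neither fit. Its slope on Ebf1 was -0.086 (SE 0.034, edgeR adjusted p = 0.0885). It reached an adjusted p of 0.0445 without Ifnar1 -/- library 1, and of 0.0433 in DESeq2 over all libraries. The slope was weakest among the fits with 1 library left out, at -0.039, without Ifnar1 -/- library 2. In limma voom over all libraries it was -0.041 and did not pass (adjusted p = 0.128).

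Bcl2a1b is a copy of the A1 gene, a survival gene of myeloid and lymphoid cells. Ifnar1 -/- library 2 had 289 CPM of it, and the other 10 libraries had 0.720 to 20.1 CPM. Near-identical copies can share reads, so single copies are uncertain. Summed over Bcl2a1a, Bcl2a1b, Bcl2a1c and Bcl2a1d, the level was 571 CPM in Ifnar1 -/- library 2 and 1.12 to 38.4 CPM in the others. The genotype log2 fold change of Bcl2a1b was 3.40 (SE 1.61, edgeR adjusted p = 0.9998) and -1.37 without that library. Its slope on Ebf1 was -0.43 (SE 0.15, edgeR adjusted p = 0.0595), and it was -0.14 (adjusted p = 0.267) without the same library. It passed without Ifnar1 -/- library 1 (adjusted p = 0.0286) or 4 (0.0463). Over all libraries it also passed with Ebf1 as high or low (log2 difference -4.34, SE 1.40, edgeR adjusted p = 0.0398) and in DESeq2 (adjusted p = 1.01e-04).

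The balance of the 3 main survival transcripts differed widely between libraries of the same genotype. Per kilobase, Bcl2l1 made up a mean of 70.3% (SD 20.001, n = 11) of the sum of Bcl2, Bcl2l1 and Mcl1, Bcl2 15.8% (SD 20.4) and Mcl1 13.9% (SD 9.13). In the Ebf1-high libraries Bcl2l1 held 93.1%, 89.2% and 89.8% (Ifnar1 +/- 3, 4 and 5) and 78.3% and 88.7% (Ifnar1 -/- 3 and 5), with Bcl2 at 0.542% to 3.14%. Bcl2 was the largest of the 3 in 2 libraries, at 46.6% in Ifnar1 +/- library 1 and 57.1% in Ifnar1 -/- library 4. It held 26.8% in Ifnar1 +/- library 2, 26.3% in Ifnar1 -/- library 1 and 6.98% in Ifnar1 +/- library 6. Mcl1 had its largest share, 37.8%, in Ifnar1 -/- library 2, where Bcl2 held 1.58%. With the longest annotated transcript as gene length, Bcl2 led in 1 library only, Ifnar1 -/- library 4.

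**Figure D2:**
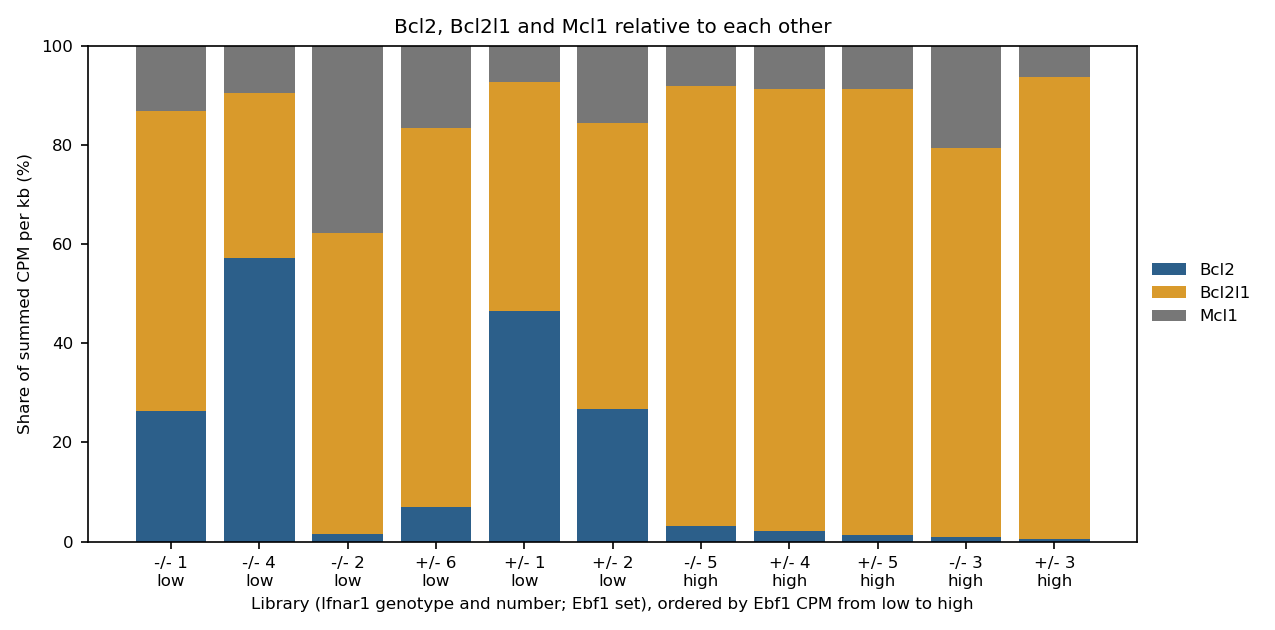
Share of Bcl2, Bcl2l1 and Mcl1 in their summed CPM per kilobase, 1 bar per library, ordered by Ebf1 CPM from low on the left to high on the right. The 5 Ebf1-high bars carry 0.542% to 3.14% Bcl2, and among the other 6 the Bcl2 share reaches 57.1%.

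As ratios per kilobase, Bcl2 to Bcl2l1 was 0.00583 to 0.0355 in the Ebf1-high libraries (median 0.0157). In the other 6 it was 0.0261 to 1.71 (median 0.450), with Ifnar1 -/- library 2 giving the lowest value. Bcl2 to Mcl1 was 0.0462 to 0.383 and 0.0419 to 6.29, and Bcl2l1 to Mcl1 was 3.77 to 14.6 and 1.60 to 6.22. The sets therefore overlapped in all 3 ratios. For Bcl2 to Bcl2l1 and Bcl2 to Mcl1 the overlap came from Ifnar1 -/- library 2 alone. The next lowest values among the libraries with little Ebf1 were 0.0914 and 0.421, in Ifnar1 +/- library 6. These lay above the Ebf1-high ranges. Bcl2l1 to Mcl1 overlapped without library 2 too.

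No ratio differed detectably between genotypes. For Bcl2 to Bcl2l1 the log2 ratio averaged -3.89 ± 2.91 over the 6 Ifnar1 +/- libraries and -3.37 ± 3.02 over the 5 Ifnar1 -/- libraries (mean ± SD). The difference was 0.52 (p = 0.764 by exact permutation, 0.829 after adjustment over 3 ratios). That of Bcl2 to Mcl1 differed by -0.36 (exact permutation p = 0.829). That of Bcl2l1 to Mcl1 averaged 2.88 ± 0.77 and 2.01 ± 0.98, with a difference of -0.88 (p = 0.130 by exact permutation, 0.390 after adjustment). The tests were two-sided, and the smallest p they can give is 0.00216. Leaving out 1 library turned the sign of the first difference (lowest -0.52) and the second (highest 0.44), but not the third (-1.23 to -0.54).

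Bbc3, whose product PUMA is a BH3-only protein induced by p53, was low throughout and split completely by Ebf1. Its CPM values were 4.11, 3.44, 0.720, 1.09, 1.01 and 5.07 over Ifnar1 +/- libraries 1 to 6, and 2.90, 4.70, 0.215, 3.17 and 0.704 over Ifnar1 -/- libraries 1 to 5. All 5 Ebf1-high libraries, with 6 to 42 counts, lay below the other 6, with 86 to 156 counts. Of all genes, 9% had the Ebf1-high libraries below all others in this way. The slope was -0.24 (SE 0.036, edgeR adjusted p = 0.00237), and leaving out any 1 library kept it between -0.28 and -0.21 with adjusted p of at most 0.0105. As a difference between the sets it was -2.49 (SE 0.40, edgeR adjusted p = 0.00202). The genotype log2 fold change was -0.14 (SE 0.78) and was positive when any of 4 single libraries was left out (highest 0.17). With Ebf1 as covariate it was -1.14 (SE 0.37, unadjusted p = 0.0114 in edgeR), which did not pass over all genes (adjusted p = 0.9994).

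Pmaip1, the gene of the BH3-only protein NOXA that binds MCL1, was low in the Ebf1-high libraries and in 2 of the others. Ifnar1 +/- libraries 1 to 6 held 59.4, 47.2, 11.7, 9.13, 10.5 and 50.9 CPM, and Ifnar1 -/- libraries 1 to 5 held 9.02, 115, 13.9, 14.7 and 9.66. Ifnar1 -/- libraries 1 and 4 overlapped the Ebf1-high range. The slope of -0.19 (SE 0.060, edgeR adjusted p = 0.0401) passed, but it held only without Ifnar1 -/- library 1 or 4. Without any other single library the adjusted p was 0.0512 to 0.132, with the highest value and a slope of -0.11 without Ifnar1 -/- library 2. Over all libraries the slope did not pass in limma voom (adjusted p = 0.0696) or in edgeR without a filter (0.0511). The genotype log2 fold change was 0.048 (SE 0.82), and -1.40 without library 2.

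Bcl2l11, whose product BIM binds all the survival proteins, had higher values in most Ebf1-high libraries. Taken in order, Ifnar1 +/- libraries 1 to 6 showed 9.95, 17.5, 54.2, 40.7, 44.8 and 7.99 CPM, and Ifnar1 -/- libraries 1 to 5 showed 3.74, 24.6, 16.04, 20.2 and 36.2. Ifnar1 -/- library 3 was the exception, below Ifnar1 +/- library 2 and Ifnar1 -/- libraries 2 and 4, which have little Ebf1. The slope of 0.13 (SE 0.051, edgeR adjusted p = 0.0866) did not pass. It passed without Ifnar1 -/- library 2 (adjusted p = 0.0367) or 3 (0.0488). Over all libraries it also passed in DESeq2 (adjusted p = 0.0286) and in limma voom (adjusted p = 0.0359). The genotype log2 fold change was -0.53 (SE 0.62), with -0.83 (SE 0.38) among the Ebf1-high libraries and 0.49 (SE 0.72) among the others.

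Bid, which caspase-8 cleaves into its active form, measured 46.6, 36.1, 98.95, 127, 121 and 23.4 CPM over Ifnar1 +/- libraries 1 to 6, and 53.3, 147, 119.9, 40.2 and 85.8 over Ifnar1 -/- libraries 1 to 5. The Ebf1-high libraries were above all others except Ifnar1 -/- library 2, which was the highest. The slope was 0.097 (SE 0.042, edgeR adjusted p = 0.116). Without that library it was 0.14 (SE 0.026, edgeR adjusted p = 0.00650). The Ebf1-high libraries then lay above all others, as for 14.1% of genes. Over all libraries the slope passed in limma voom, at 0.13 (adjusted p = 0.00436). The genotype log2 fold change was 0.24 (SE 0.50), with -0.17 among the Ebf1-high libraries and 1.20 (SE 0.57) among the others. The last value includes Ifnar1 -/- library 2, and without that library the value over both sets was -0.0087. Bid shares 628 exon bases with Bcl2l13 on the opposite strand, and the sources used here do not say whether the counting used strand. For the same reason reads of Bcl2 and of D630008O14Rik, an antisense gene with 206 counts in all libraries together, cannot be told apart over 558 exon bases.

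The effectors passed neither the genotype test nor the Ebf1 test. The mean level of Bax was 204 ± 47.6 CPM over the 6 Ifnar1 +/- libraries and 202 ± 62.0 CPM over the 5 Ifnar1 -/- libraries (mean ± SD), and that of Bak1 was 14.8 ± 2.91 and 15.04 ± 5.07 CPM. Bax ran from 144 to 237 CPM in the Ebf1-high libraries and from 160 to 303 CPM in the others. Bak1 ran from 11.2 to 18.04 CPM and from 9.64 to 22.4 CPM. Genotype log2 fold changes were -0.015 (SE 0.24) and 0.022 (SE 0.25). The slopes were -0.027 (SE 0.021) for Bax and -2.39e-04 (SE 0.025) for Bak1, with edgeR adjusted p of 0.369 and 0.995. The highest value of both was in Ifnar1 -/- library 2, and Bak1 shares exon bases with Ggnbp1 on the opposite strand.

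Counted over the group, 0 of 10 members passed between genotypes in edgeR, where 0% of the 14521 genes passed. At an unadjusted p under 0.05 there was 1 member, Bcl2l1, against 1.99% of all genes. DESeq2, which gave Bcl2a1b no adjusted p, and limma voom also called 0 members. Fitted values were positive for 5 members and negative for 5, with a median log2 fold change of 0.0037 against -0.015 over all tested genes. The genotypes did not separate without overlap for any member, as for all but 0.124% of genes. The interaction of genotype with Ebf1 passed for 0 members and 0% of genes in edgeR, and 1 member (Bid) had an unadjusted p under 0.05 against 6.36% of genes. DESeq2 and limma voom called 0 members there too.

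With Ebf1, 3 of 10 members passed in edgeR, Bcl2, Bbc3 and Pmaip1, all lower where Ebf1 was higher. Across all genes 25.1% passed in either direction and 12.3% in this direction, so the share of members in either direction was close to that of genes at large. The count ran from 1 to 5 when 1 library was left out, and that of all genes from 2066 to 4549. It was 1 without Ifnar1 +/- library 1, 3, 4 or 5, 2 without Ifnar1 +/- library 2 or 6 or Ifnar1 -/- library 3 or 5, and 5 without Ifnar1 -/- library 1. The median slope was -0.057 against -0.0052 over all tested genes. Because Ebf1 has 2 separate levels, a slope mostly compares the sets. With Ebf1 as high or low in place of the slope, 4 members passed, Bcl2a1b being added to these 3. The shares of all genes given above are for the slope, so this count of 4 is not set against a share of its own. Members higher with more Ebf1 passed in other fits, Bcl2l11 in DESeq2 and limma voom and Bid in limma voom. Besides the B-lineage markers, some other marker sums did not overlap between the sets. That of 4 stem and progenitor markers was 123 to 230 CPM in the Ebf1-high libraries and 233 to 1165 CPM in the others. That of 3 megakaryocyte markers was 11.4 to 190 and 349 to 2669 CPM. Singly, only Itga2b among these markers separated the sets and passed the slope test (edgeR adjusted p = 0.0197). Kit, Cd34, Mecom, Flt3, Pf4 and Gp9 overlapped and did not pass (edgeR adjusted p of 0.0678 to 0.207). Of the 5 T and NK markers only Lck was high enough to test. It had 95.4 to 452 CPM in the Ebf1-high libraries and 0.774 to 69.4 CPM in the others, while Cd3e, Cd8a and Ncr1 were each at most 0.357 CPM in any library. Cd3g had 5.99 CPM in Ifnar1 -/- library 2 and at most 0.216 CPM elsewhere. The part of these cell types in the slopes was not tested.

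**Figure D3:**
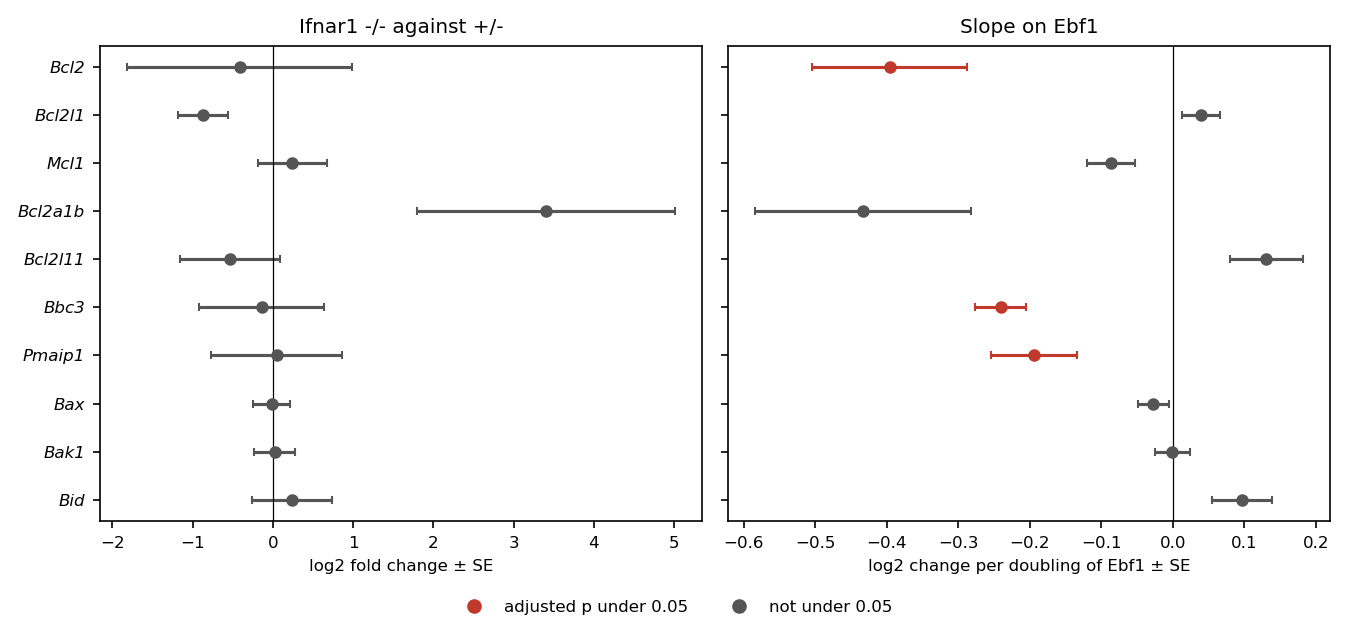
Fitted log2 fold change of each member by genotype (left) and its log2 change per doubling of Ebf1 (right), with bars of 1 SE from edgeR. Red points have an adjusted p under 0.05. No member is red by genotype, and Bcl2, Bbc3 and Pmaip1 are red, all below 0, for Ebf1.

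Other family genes changed with Ebf1 in both directions. Of 15 listed, 12 could be tested, and Bcl2l10, Bik and Hrk were too low. With more Ebf1, 3 rose and 2 fell, against 12.7% and 12.3% of all genes. Bok, the gene of a BAX-like effector, had 34.8 to 65.5 CPM in the Ebf1-high libraries and 0.155 to 2.89 CPM in the others (slope 0.52, SE 0.065, edgeR adjusted p = 0.00106). Bmf, a BH3-only gene, had 22.9 to 83.9 and 0.464 to 10.3 CPM (edgeR adjusted p = 0.00607), and Bcl2l12 had 57.3 to 85.2 and 18.3 to 32.3 CPM (0.00109). Bnip3, a mitophagy receptor gene, had 20.2 to 29.7 and 55.7 to 294 CPM (0.00413), and Bnip3l also fell. The count of 5 was 5 or 6 when any 1 library was left out.

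By genotype 0 of these 12 passed in edgeR and 0 of the 10 with an adjusted p passed in DESeq2. At an unadjusted p under 0.05 in edgeR there was 1, the A1 copy Bcl2a1a. Bcl2a1a averaged 3.14 ± 4.79 CPM over the 6 Ifnar1 +/- libraries and 44.6 ± 97.5 CPM over the 5 Ifnar1 -/- libraries (mean ± SD), and Bcl2a1d averaged 1.45 ± 2.06 and 12.9 ± 27.8 CPM. The highest was again Ifnar1 -/- library 2, with 219 and 62.6 CPM, and the other 4 of its genotype averaged 1.05 ± 0.577 and 0.506 ± 0.297 CPM. Bcl2l2 (BCL-W) had 2.79 ± 0.986 and 2.13 ± 0.826 CPM, and Bcl2l15 had 0.565 ± 0.772 and 0.325 ± 0.254 CPM.

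Of the wider cell death machinery, all 23 listed genes could be tested. They cover caspases, their activators and inhibitors, the VDAC channels and nucleases or related proteins of cell death. With more Ebf1, 3 rose and 5 fell, against 12.7% and 12.3% of all genes. Casp9, the initiator caspase of the mitochondrial route, had 9.89 to 13.2 CPM in the Ebf1-high libraries and 23.4 to 62.1 CPM in the others (slope -0.16, SE 0.025, edgeR adjusted p = 0.00271). Cflar, which encodes the caspase-8 inhibitor c-FLIP, had 32.01 to 40.9 and 50.4 to 70.8 CPM (0.0209). Casp8 had 114 to 155 and 33.7 to 97.7 CPM (0.0243). Aifm1, the gene of a mitochondrial flavoprotein, also rose (0.0245). The count of 8 was 2 without Ifnar1 +/- library 4 or 5 or Ifnar1 -/- library 3, 4 without Ifnar1 -/- library 5 and 5 without Ifnar1 +/- library 1 or 3.

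By genotype 0 of the 23 passed in edgeR or DESeq2, and 0 had an unadjusted p under 0.05. Cycs, the gene of cytochrome c, averaged 153 ± 29.3 CPM over the Ifnar1 +/- and 114 ± 29.1 CPM over the Ifnar1 -/- libraries (mean ± SD). Birc3 had 53.1 ± 20.9 and 87.4 ± 66.5 CPM, and Casp6 had 62.5 ± 32.3 and 103 ± 80.4 CPM. The high one in both was Ifnar1 -/- library 2, with 201 and 245 CPM, and the other 4 of its genotype averaged 59.1 ± 23.1 and 67.2 ± 12.6 CPM. The median log2 fold change of the list was 0.012.

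Of 14 regulators known to act on transcription or turnover of the members, 1 rose and 1 fell with Ebf1, against the same shares of all genes. Foxo1, a forkhead factor gene, had 13.9 to 32.2 CPM in the Ebf1-high libraries and 3.04 to 11.9 CPM in the others (slope 0.16, SE 0.032, edgeR adjusted p = 0.00729). Ddit3 (ENSMUSG00000025408), which encodes the stress factor CHOP, had 5.94 to 15.3 and 26.8 to 146 CPM (0.00998). Myb had 65.8 to 198 and 22.6 to 80.8 CPM (0.0636), and Cdk9 had 73.2 to 153 and 41.6 to 106 CPM (0.0812). The count of 2 was 5 without Ifnar1 -/- library 2 and 4 without Ifnar1 +/- library 6. By genotype 0 passed in edgeR or DESeq2 and 0 had an unadjusted p under 0.05. Atf4, Marchf5, Fbxw7 and Stat5b had the smallest p, with 144 ± 53.1 against 102 ± 28.2, 12.01 ± 7.40 against 7.96 ± 1.47, 23.5 ± 3.73 against 18.4 ± 5.52 and 31.4 ± 7.37 against 43.2 ± 24.1 CPM (SD, n = 6 and 5). For Stat5b, Ifnar1 -/- library 2 had 83.5 CPM and the other 4 of its genotype averaged 33.1 ± 9.82 CPM. For Marchf5, Ifnar1 +/- library 6 had 26.8 CPM and the others of its genotype had 7.02 to 11.6 CPM. That library was also the highest for Atf4, at 236.7 CPM.

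Promoter windows were read because 3 members were lower where Ebf1 was higher. The RefSeq table (GRCm38.p6) held 14 windows for 9 members, and the 250 bases before each start were searched on both strands. The EBF1 core (TCCC, any 2 bases, GGGA) and the STAT core TTCNNNGAA occurred in none of the 14, and in 0.779% and 7.02% of 32851 windows of all genes. The forkhead core GTAAACA occurred in 1 window each of Bcl2l11 and Bbc3 and in 3.17% of all windows. These matches are descriptions of letters, and the windows of Pmaip1 were not searched. The Bcl2l11 window, at chr2:128125788-128126037 on the plus strand, holds it 227 bases before the start. In the Bbc3 site, at chr7:16310083-16310111 on the plus strand and 167 bases before an alternative start, the letters are on the opposite strand. Capitals mark the match.

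Bcl2l11: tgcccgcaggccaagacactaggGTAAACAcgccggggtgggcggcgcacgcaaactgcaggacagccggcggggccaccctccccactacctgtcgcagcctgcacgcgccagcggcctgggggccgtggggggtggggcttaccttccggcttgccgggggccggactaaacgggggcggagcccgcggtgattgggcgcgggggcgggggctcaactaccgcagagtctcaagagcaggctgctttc
Bbc3: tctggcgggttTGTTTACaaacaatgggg

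Genes whose log2 CPM followed a survival gene most closely over the 11 libraries were ranked by Pearson's r, as a description. For Bcl2 these were Thsd4 (r = 0.983), Serpina3f (0.979) and Mill2 (0.973). For Bcl2l1 they were Lhfpl2 (0.906), Amd2 (0.882) and the interferon-stimulated gene Oasl1 (0.869). For Mcl1 they were Kctd20 (0.973), Fcho2 (0.966) and Adipor1 (0.965). All of these points share the libraries, and the values for Mcl1 include Ifnar1 -/- library 2, which had the highest Mcl1.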

How the data were processed

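The deposited table holds the authors' estimated counts per gene for 11 libraries, not scaled between them, and 10.03% to 11.35% of values were not whole. Per the labels' protocols, RNA was taken with a Qiagen micro kit and libraries with a Clontech SMART-type kit. Per the submitters' processing notes bcl2fastq and DRAGEN were used. The sources used here do not give their roles, the genome build or the annotation. Of 55774 rows, 287 identical repeats were dropped.

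Counts were rounded and fitted over all genes with edgeR 4.0.16 in R 4.3.3 (filterByExpr, TMM, quasi-likelihood F-test, Benjamini-Hochberg adjustment, threshold 0.05). Genotype was fitted alone. The Ebf1 slope used log2 CPM (prior count 2) with genotype in the model. SE is the absolute estimate divided by the square root of F. Ratios had 0.5 added to each count and were tested by exact permutation. Other fits used DESeq2 1.42.0 and limma 3.58.1. The edgeR steps were tested on simulated data.

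Lengths and positions are from GENCODE M21 (GRCm38), and 55141 identifiers had a symbol. Members and lists were chosen with earlier results of these data known. Named beyond the members are up to 4 genes per list and test with the smallest p, the A1 copies, and 3 genes of like pattern for each of Bcl2, Bcl2l1 and Mcl1. One gene that this rule names is not reported here. Bnip3l and single marker genes were named after their values were seen.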

Additional observations from a re-analysis of the deposited data

Results flagged for a closer look

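Within each genotype, a library was singled out where its gap to the nearest other library exceeded Dixon's 95% critical share of the range, over 10 members and 3 ratios. This was found in 5 of 26 groups. The critical share is set so that about 1 of 20 groups of normally distributed values exceeds it. Member levels were compared as CPM without a log scale, and the groups share libraries. That rate was not tested for these groups, so the count of 5 is a description only. Ifnar1 -/- library 2 was the highest of its genotype for Mcl1 (109.6 CPM), Bcl2a1b (289 CPM) and Pmaip1 (115 CPM). In Ifnar1 +/- AML, library 1 was the highest for Bcl2 (702 CPM) and library 2 the highest for Bcl2a1b (20.1 CPM).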

How the results depend on the processing

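Between genotypes 0 members passed under any of the alternatives run. The count for Ebf1 was 3 in edgeR, 6 at a threshold of 0.1 (5111 of all genes) and 6 in DESeq2 (5524 of all genes). In limma voom it was 4 (5926 of all genes), with Bcl2l11 and Bid passing as higher and Pmaip1 not passing. It was 6 with Ebf1 as 2 levels without Ifnar1 -/- library 2 (added after seeing the data), a count not set against all genes here. Without single libraries it was 1 to 5 (2066 to 4549 of all genes). With the replicate numbers as a block (replicate block) it was 0, and 2 genes of all passed against 3639. Only the libraries numbered 4 fell in different Ebf1 sets, so within numbers the sets are compared through that pair alone. A drop in calls follows from this layout and says little about the slopes. Deviations of same-numbered libraries correlated at -0.55 (number 4) to 0.58 (number 3). These values go with the Ebf1 sets, so they cannot tell whether the numbers pair the samples. Over all genes DESeq2 called 5524 and limma voom 5926 for Ebf1, 161 and 0 for the interaction (1 in edgeR without Ifnar1 -/- library 2) and 3 and 0 by genotype. In DESeq2 8 other family genes passed for Ebf1, and in limma voom 5 regulators.

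These uncalled values changed sign. For genotype, limma voom gave 1.57 for Bcl2, -0.12 for Mcl1, 0.21 for Bbc3, -0.24 for Pmaip1, -0.31 for Bak1 and -0.46 for Bid. Bax was 0.0056 in DESeq2, 0.0057 with its size factors and 0.018 with the 5 CPM filter. Without a filter Pmaip1 was -0.011 and Bak1 -0.0066, and with the replicate block -0.027 and -0.056. With Ebf1 as covariate Mcl1 was -0.097, Bcl2l11 0.20 and Pmaip1 -0.48. Within the Ebf1-high libraries Bcl2 was 0.15, Mcl1 -0.14, Bak1 -0.097 and Bid -0.17. Within the others Bcl2l11 was 0.49, Pmaip1 -0.16, Bax 0.15 and the log2 ratio of Bcl2 to Bcl2l1 -0.38. The Ebf1 slope of Bak1 was 0.0042 in limma voom, 0.0029 unfiltered, 0.016 with the block and 0.13 as 2 levels without Ifnar1 -/- library 2, and that of Bcl2l11 -0.027 with the block. The cause was not tested.

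Without single libraries the genotype values ran from -1.82 to 1.12 for Bcl2, -0.47 to 0.40 for Mcl1, -1.37 to 4.45 for Bcl2a1b, -0.56 to 0.17 for Bbc3, -1.40 to 0.33 for Pmaip1, -0.20 to 0.086 for Bax, -0.16 to 0.14 for Bak1 and -0.0087 to 0.45 for Bid. The slope of Bak1 ran from -0.011 to 0.018. The log2 ratios ran from -0.52 to 1.30 (Bcl2 to Bcl2l1) and -1.35 to 0.44 (Bcl2 to Mcl1).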
